A study of Mus musculus with 14 samples.

Results

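The genes described here encode the subunits of the mitochondrial respiratory chain and of ATP synthase. They were chosen by symbol from a table of 23523 mouse gene entries: every entry named Nduf followed by a, b, c, s or v and a number, Sdha to Sdhd, any Uqcr gene, any Cox4 to Cox8 gene, and any Atp5 gene. The rule found 82 genes, 1 entry each. By name, 36 belong to complex I, 4 to complex II, 8 to complex III, 17 to complex IV and 17 to complex V. No measured value entered the choice. The symbols are a close but imperfect guide to membership. Current RefSeq names place Atp5s and Atp5sl outside ATP synthase (Dmac2l and Dmac2), and Ndufa4, named for complex I, is now known as a subunit of complex IV. The rule also misses some subunits under other names, such as Cyc1 and Ndufab1, which are given further on in a list of their own.

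The respiratory chain sits in the inner mitochondrial membrane. Complex I takes electrons from NADH and complex II takes them from succinate, complex III passes them to cytochrome c, and complex IV hands them to oxygen. Complexes I, III and IV pump protons, and complex V, the ATP synthase, lets the protons flow back to make ATP. The subunits measured here are encoded in the nucleus and imported. The core subunits encoded by mitochondrial DNA carry other names and are not covered. Neurons depend heavily on this system for ATP, whereas dividing progenitors are known for high glycolysis.

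The libraries come from a mouse study of microRNA-218 (miR-218), a motoneuron microRNA with a gene in an intron of Slit2 and another in an intron of Slit3. The labels list 14 samples, and 13 were used; floor plate cells were not analysed here. Motoneurons of E12.5 embryos were sorted as GFP-positive cells carrying the Hb9::gfp reporter, in 6 wild-type (WT) libraries and 2 libraries of embryos lacking both miR-218 genes (218DKO, here DKO), which carry the same reporter. Interneurons of the same stage, on a wild-type background, were sorted as tdTomato-positive cells. V1 cells carried En1:cre, V2a cells Chx10:cre and V3 cells Sim1:cre, each with Rosa26:LSL:tdTomato, and each type had 1 library. A Cre-activated reporter marks every cell whose lineage expressed the driver, so it can include cells that no longer express it. The last 2 libraries came from wild-type embryonic stem (mES) cultures differentiated for 4 days with retinoic acid and a sonic hedgehog agonist. In 1 of them, motoneuron progenitors (pMN) were sorted as tdTomato-positive cells carrying Olig2:cre and Rosa26:LSL:tdTomato. The other held unsorted spinal neural progenitors (NP) without a reporter. Whether replicate libraries come from different embryos is not in the labels. The p-values therefore reflect the spread between these samples, which may be technical within WT and within DKO. Where interneuron types, or pMN and NP, are taken as 1 group, its spread also holds differences between cell populations.

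Values are the authors' signal, an abundance scaled for transcript length and between libraries, so levels can be compared between genes. Estimated depth was 7.39 M and 15.4 M reads in DKO replicates 1 and 2. It was 11.7 to 28.4 M in WT, 16.1 to 17.4 M in interneurons and 23.2 to 25.7 M in mES cells. Markers followed the labels, apart from the motoneuron genes Slc18a3 and Chat in V2a. The summed signal of 6 motoneuron genes was 7934 to 9379 in WT, 9636 and 9013 in DKO, 44.5 in V1, 1564 in V2a, 131 in V3, and 234 and 238 in pMN and NP. In V2a this sum came mainly from Slc18a3 at 1202 and Chat at 309, against 1658 to 2720 and 339 to 500 in WT. Mnx1, Isl1, Isl2 and Slc5a7 were at most 34.4 in V2a. Sums of the 3 markers of each interneuron type were 6644 in V1, 9263 in V2a and 5808 in V3, and at most 401, 79.5 and 299.6 in the other libraries. Olig2 was 1495 in pMN and 191 in NP. The miR-218 hairpins are not read out by these mRNA libraries. Their host genes differed between the genotypes: Slit3 was 571 to 694 in WT and 3845 and 3571 in DKO, and Slit2 was 1344 to 2219 in WT and 3929 and 3894 in DKO. The WT libraries numbered 2, 3 and 4 stood apart from those numbered 1, 5 and 6 in Rn45s, a ribosomal RNA precursor, with 10197 to 27943 against 644 to 4275.

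Promoters of some isoform pairs that differed between cell sources are shown first. They are RefSeq sequence on GRCm38.p6, from 250 bases before to 50 bases after the transcription start. Cox6b1 is the general isoform of a complex IV subunit and Cox6b2 its testis isoform. Atp5g1 and Atp5g2 encode the same mature c subunit of the ATP synthase rotor. Capitals mark matches to motifs of factors known for nuclear control of this chain. Motifs were searched on both strands: TGCGCA for NRF-1, CCGGAAG for ETS factors such as the GABP complex, and AAGATGGC for YY1. The last letters of the ETS motif are the first of the YY1 motif, so these can share bases.
Cox6b1, minus strand of chr7:30626065-30626364: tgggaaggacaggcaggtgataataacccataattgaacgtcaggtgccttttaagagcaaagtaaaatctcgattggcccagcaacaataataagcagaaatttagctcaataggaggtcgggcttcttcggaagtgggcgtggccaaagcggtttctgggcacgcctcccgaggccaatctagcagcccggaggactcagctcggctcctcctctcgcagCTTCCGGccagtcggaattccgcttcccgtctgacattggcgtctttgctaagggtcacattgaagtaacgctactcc
Cox6b2, minus strand of chr7:4753045-4753344: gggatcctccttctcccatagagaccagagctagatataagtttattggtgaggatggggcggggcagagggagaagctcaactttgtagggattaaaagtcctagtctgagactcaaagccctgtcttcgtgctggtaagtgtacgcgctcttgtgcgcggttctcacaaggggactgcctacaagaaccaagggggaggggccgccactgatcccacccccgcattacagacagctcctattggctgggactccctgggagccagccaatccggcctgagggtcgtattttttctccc
Atp5g1, minus strand of chr11:96075582-96075881: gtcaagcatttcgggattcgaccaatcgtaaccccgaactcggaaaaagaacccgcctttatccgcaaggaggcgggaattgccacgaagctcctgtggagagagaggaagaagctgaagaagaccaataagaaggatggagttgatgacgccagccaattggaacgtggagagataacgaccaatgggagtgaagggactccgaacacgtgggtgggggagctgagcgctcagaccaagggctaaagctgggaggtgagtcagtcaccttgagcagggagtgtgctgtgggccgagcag
Atp5g2, minus strand of chr15:102670998-102671297: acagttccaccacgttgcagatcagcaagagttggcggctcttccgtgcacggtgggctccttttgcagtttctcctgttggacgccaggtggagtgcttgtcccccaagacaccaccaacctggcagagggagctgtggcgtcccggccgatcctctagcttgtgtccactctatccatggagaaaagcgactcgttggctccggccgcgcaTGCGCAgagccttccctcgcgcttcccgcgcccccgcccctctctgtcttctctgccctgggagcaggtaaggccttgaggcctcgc
The Cox6b1 window holds the ETS letters on its minus strand and the Atp5g2 window the NRF-1 letters. Those of Cox6b2 and Atp5g1 hold none of the 3 motifs. The windows of Cox7a1 and Cox7a2, another pair that differed, hold none of them either and are not shown. A promoter was matched for 68 of the 82 genes. The NRF-1 letters occurred in 26.5% of these against 8.79% of 27025 genes with a promoter, the ETS letters in 23.5% against 9.93%, and the YY1 letters in 16.2% against 3.19%. At least 1 of them was present in 36 of 68 genes, 52.9%, against 19.3% of all. A match describes these letters only, and binding was not measured.

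The mature miR-218-5p is shown next because the knockout removes it, with its seed (bases 2 to 8) in capitals. Below it are the 5 respiratory chain genes whose 3′ UTR holds the match to the whole seed, AAGCACA, in capitals with 8 bases on each side, from GENCODE M21 on GRCm38.
miR-218-5p: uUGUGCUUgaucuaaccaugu
Ndufb4, minus strand of chr16:37647380-37647402: gagtcggaAAGCACAgctcagag
Ndufa10, minus strand of chr1:92439335-92439357: cttttctgAAGCACAttagagca
Uqcrc2, plus strand of chr7:120659132-120659154: agaccagcAAGCACAtcaaagtc
Cox7b, plus strand of chrX:106022124-106022146: gaagaaatAAGCACAgagctgtt
Atp5s, plus strand of chr12:69744199-69744221: aaacctgaAAGCACAggtactga
A further 4 genes (Ndufb6, Ndufs6, Sdha and Uqcrq) hold the shorter match AGCACAA, and 0 hold the full AAGCACAA. Together 9 of 78 tested genes with an annotated 3′ UTR had a site, 11.5%, against 19.6% of 14968 genes. Their 3′ UTRs were short, with a median of 160.5 bases against 1045.

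In WT motoneurons the median level of every complex lay above the upper quartile of all genes, which was 228 to 232 in these libraries, and was ordered from complex I, the lowest, to complex V. The median of the gene means was 1230 for complex I, 1440 for complex II, 1558 for complex III, 2140 for complex IV and 2876 for complex V. In WT replicate 2 the order of complexes II and III was reversed, with medians of 1507 and 1488. The highest member was Atp5b, the catalytic beta subunit, with a lowest, median and highest WT value of 10014, 11705 and 13468. Its partner Atp5a1, the alpha subunit, followed with 5777, 6739 and 8289. In complex IV, Cox4i1 had 4930, 6209 and 6924 and Cox6a1 had 4051, 6230 and 6730. These ranges overlap, so the order of Atp5a1, Cox4i1 and Cox6a1 lies within the spread of the libraries. In complex III the leaders were the hinge protein Uqcrh, at 2523, 3074 and 3331, and the core protein Uqcrc1, at 1678, 1955 and 2370. The leaders of complex I were Ndufa4, at 3332, 4098 and 4390, and the membrane-arm subunit Ndufb8, at 2399, 3015 and 3325. In complex II the iron-sulfur subunit Sdhb had 1590, 1683 and 1802 and the membrane anchor Sdhc had 1299, 1637 and 1740. Together the 82 genes took up 2.13% to 2.36% of the WT signal, 2.18% in both DKO libraries, 1.74% to 1.98% in the interneurons, 2.56% in pMN and 2.11% in NP.

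**Figure D1:**
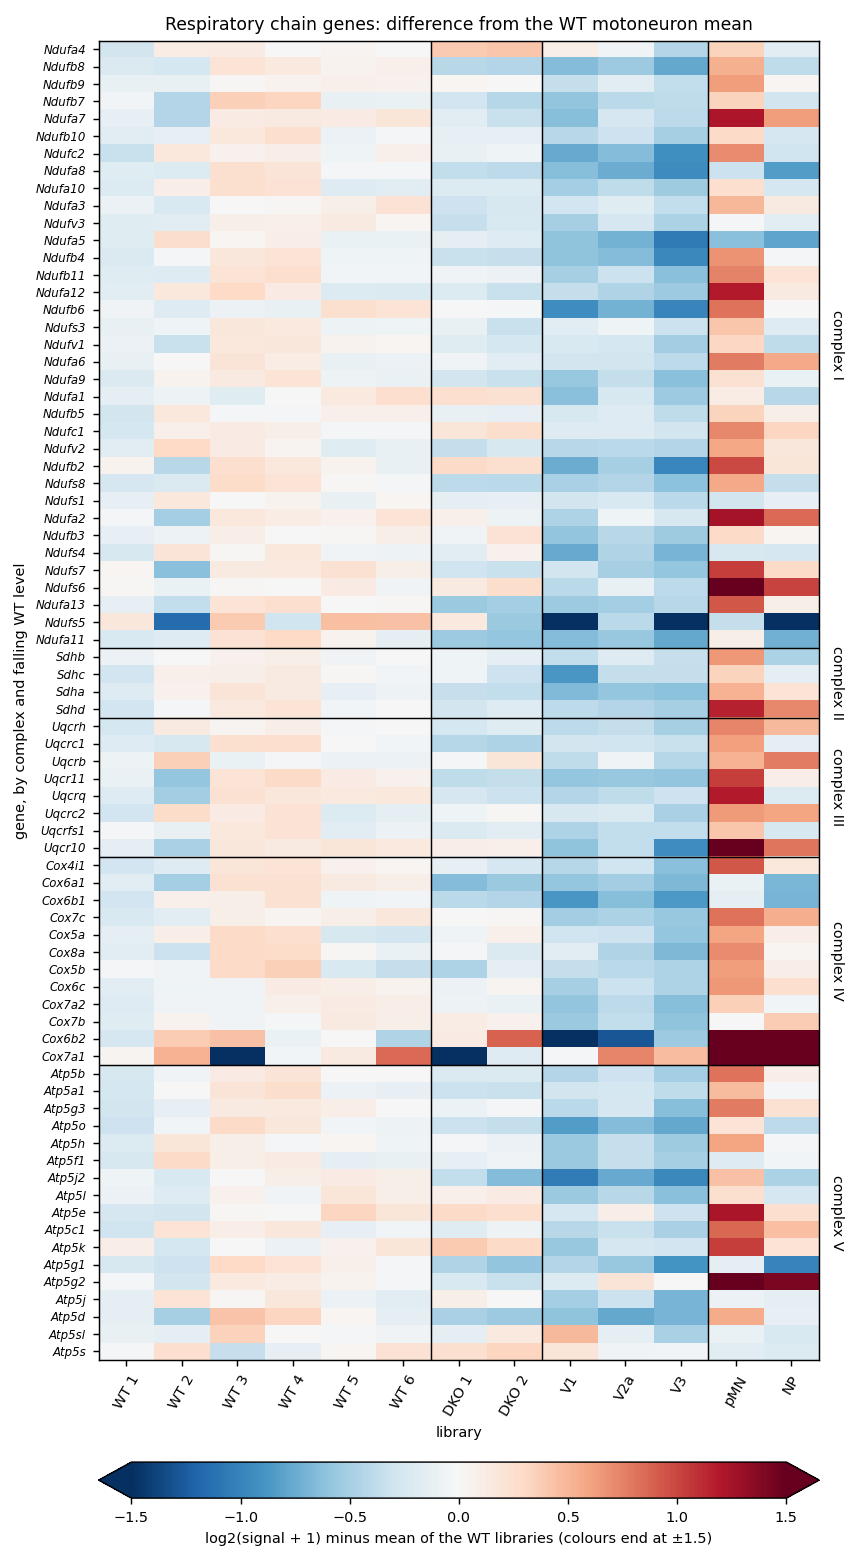
Each row is 1 of 76 respiratory chain genes whose signal averaged 10 or more and each column 1 library; colour is log2(signal + 1) minus the mean of the 6 WT motoneuron libraries. The 3 interneuron columns are mostly blue, the pMN column mostly red, and the DKO columns mixed.

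The subunits varied little among the WT libraries, with a median coefficient of variation of 12.4% over the 77 genes. Sdhb was the steadiest at 4.79%, followed by Ndufs6 at 5.38% and Ndufb9 at 5.74%. The highest were Cox7a1 at 46.1%, Ndufs5 at 34.7%, Cox6b2 at 24.9% and Atp5d, the delta subunit of the ATP synthase, at 23.3%. The libraries also shared a tilt. The highest WT value fell in replicate 3 for 23 genes and in replicate 4 for 21, and the lowest in replicate 1 for 36 and in replicate 2 for 30. Ndufs1 and Ndufb5 were among the least variable members over all 13 libraries, with an SD of log2(signal + 1) of 0.15 and 0.20. Ndufs1 is a core subunit of complex I that carries electrons. The most variable were the isoforms Cox7a1, Cox4i2 and Cox6b2, with 2.10, 1.89 and 1.60.

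The messages are short, which mattered most for the comparison with the mES progenitors. Member transcripts measured 315 to 3171 bases with a median of 729, against 2302 for all genes with a length, and 56 of 82 were under 1000 bases against 17.2% of all. Many of these genes also have near-identical processed pseudogenes, and how the authors assigned reads matching several places is not given in the sources used here, so single values carry that uncertainty.

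Respiratory chain messages were higher in motoneurons than in the V1, V2a and V3 interneurons of the same stage. Of 79 genes tested, 54 were higher in the 6 WT motoneuron libraries and 0 lower at an adjusted p under 0.05 (limma), where 17.7% of all 16486 genes tested were higher and 15.2% lower. At an unadjusted p under 0.05 the counts were 68 and 0, where 22.8% of all genes were higher and 22.4% lower. The median difference of the members was 0.44 on the log2(signal + 1) scale, against -0.04 for all genes and 0.08 for genes under 1000 bases. In 52 genes the WT and interneuron values did not overlap, against 33.1% of all genes. Counts of higher genes were 26 of 36 in complex I, 4 of 4 in complex II, 4 of 8 in complex III, 8 of 14 in complex IV and 12 of 17 in complex V. In these sorted bulk samples, fewer cells of a type and less RNA per cell cannot be told apart. Motoneurons were sorted by Hb9::gfp and interneurons by Cre-activated tdTomato, so cell type cannot be told apart from reporter and sort either.

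**Figure D2:**
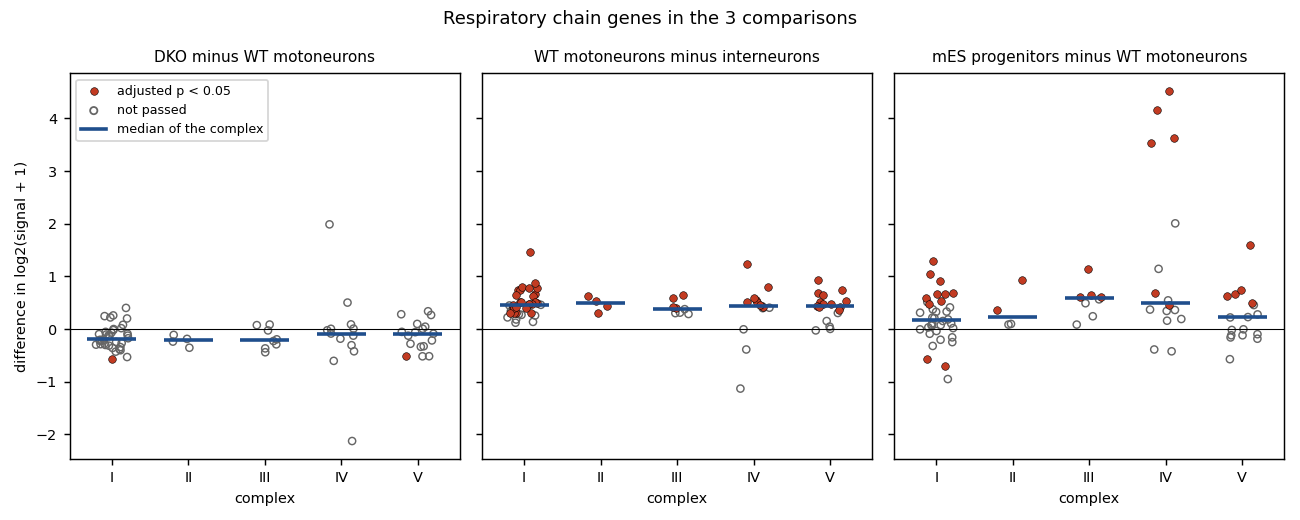
Each point is 1 tested gene, placed by complex (horizontal axis) and by its difference in log2(signal + 1) (vertical axis) in the 3 comparisons; filled points passed at an adjusted p under 0.05 and bars are medians of the complex. In the interneuron comparison 75 of 79 points lie above 0, with medians of 0.39 to 0.49, and medians lie between -0.21 and -0.09 in the DKO comparison.

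In complex I the genes with the smallest adjusted p were mostly accessory subunits. Ndufb6, of the membrane arm, had 1092, 1195 and 1477 as lowest, median and highest WT value, and 653 in V1, 765 in V2a and 627 in V3. No interneuron value reached the WT range, and the difference was 0.88 (SE 0.12, 1.84-fold, adjusted p = 0.000472). Ndufc2 had 1178, 1559 and 1660 in WT and 882, 946 and 787 in V1, V2a and V3, a difference of 0.78 (SE 0.12, adjusted p = 0.000875). Ndufa8, an intermembrane-space subunit, had 1289, 1458 and 1756 in WT and 955, 882 and 774, a difference of 0.77 (SE 0.12, adjusted p = 0.00107). Both genes were separated without overlap. Ndufa5, of the arm that reaches into the matrix, differed by 0.79 (SE 0.13, adjusted p = 0.00126), Ndufb4 by 0.74 (SE 0.12, adjusted p = 0.00133) and Ndufb3 by 0.51 (SE 0.08, adjusted p = 0.00141). Ndufs4, an accessory subunit whose loss causes Leigh syndrome, was 482, 595 and 503 in V1, V2a and V3 against 689, 807 and 930 in WT, a difference of 0.64 (SE 0.11, adjusted p = 0.00236). Ndufb8 differed by 0.65 (SE 0.12, adjusted p = 0.00288).

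The widest complex I difference also had the widest spread. Ndufs5 was 237 to 724 in WT with a median of 642, and 184, 399 and 94.9 in V1, V2a and V3, a difference of 1.46 (SE 0.44, adjusted p = 0.0285). The groups overlapped, because WT replicate 2 lay at 237 and V2a at 399. At the other end, Ndufa4 was 4265, 3890 and 2967 against 3332, 4098 and 4390 in WT, a difference of 0.14 (SE 0.13, adjusted p = 0.437).

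All 4 genes of complex II passed. Sdha, the flavoprotein that oxidises succinate, was 1128, 1280 and 1471 in WT and 814, 857 and 841 in V1, V2a and V3, a difference of 0.62 (SE 0.10, adjusted p = 0.00133). The anchors Sdhc and Sdhd differed by 0.53 (SE 0.13, adjusted p = 0.0134) and 0.44 (SE 0.11, adjusted p = 0.0112), and Sdhb by 0.31 (SE 0.08, adjusted p = 0.0163). For all 4 the interneuron libraries lay below every WT library. In complex III the genes that passed were Uqcrh, Uqcrfs1 (the Rieske iron-sulfur protein), Uqcr10 and Uqcr11, with differences of 0.41, 0.40, 0.64 and 0.58. The core proteins Uqcrc1 and Uqcrc2 differed by 0.30 and 0.31, with adjusted p = 0.0791 and 0.106.

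In complex IV the general isoform Cox6b1 was 4707, 5836 and 6779 in WT and 3138, 3708 and 3180 in V1, V2a and V3, a difference of 0.79 (SE 0.12, 1.73-fold, adjusted p = 0.00099). The testis isoform Cox6b2, 0.986% of the pair in WT, was also higher in motoneurons, with 40.8, 54.4 and 76.5 in WT and 14.4, 22.6 and 38.2 in the interneurons, a difference of 1.24 (SE 0.31, adjusted p = 0.0117). Cox7a2 differed by 0.55 (SE 0.10, adjusted p = 0.00236) and Cox7b by 0.51 (SE 0.10, adjusted p = 0.00298). Cox4i1, the largest nuclear-encoded subunit of the enzyme, was 4470, 4895 and 3905 in the interneurons, below all WT values, and differed by 0.45 (SE 0.13, adjusted p = 0.0269). Cox8a differed by 0.43, with adjusted p = 0.0567. The 2 lowest differences belonged to scarce isoforms: Cox4i2 at -1.13 (SE 0.69, adjusted p = 0.224) and Cox7a1 at -0.39 (SE 0.46, adjusted p = 0.528). Cox4i2 rested on 0 to 2 reads in WT and about 6, 2 and 0 in V1, V2a and V3.

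In complex V the smallest adjusted p of all members belonged to Atp5j2, the f subunit of the membrane part. It was 2657, 3218 and 3392 in WT and 1512, 1849 and 1589 in V1, V2a and V3, a difference of 0.92 (SE 0.11, 1.90-fold, adjusted p = 0.000178). Atp5o, the stalk subunit known as OSCP, was 3977, 4808 and 6016 in WT and 2755, 3151 and 2898, a difference of 0.75 (SE 0.13, adjusted p = 0.00175). Atp5l, the g subunit, differed by 0.53 (SE 0.10, adjusted p = 0.00338) and the catalytic Atp5b by 0.42 (SE 0.12, adjusted p = 0.0218). Atp5g2 stood apart from this pattern with 2134, 2813 and 2479 against 2032, 2500 and 2721 in WT, a difference of 0.00 (SE 0.12, adjusted p = 0.988). Its paralogs Atp5g1 and Atp5g3 differed by 0.64 (adjusted p = 0.0104) and 0.44 (adjusted p = 0.0241). Atp5s, outside the enzyme by its current name, had a difference of -0.03 (SE 0.18, adjusted p = 0.923).

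The number of calls depended on V3 more than on the other libraries. The median difference was 0.41 without V3, 0.43 without V1 and 0.48 without V2a, against 0.44 with all libraries. Without V3, 31 genes were higher and 1 (Cox4i2) lower, where 15.4% of all genes were higher and 10.6% lower. Cox4i2 averaged 0.754 in WT, below the filter of 1, and entered the test only through the interneurons. Without V1 40 genes were higher (15.7% of all genes), and without V2a 45 (13.4%). Against the WT libraries 2, 3 and 4 alone 49 genes were higher and 0 lower (15.1% and 15.2% of all genes), and against 1, 5 and 6 alone 45 and 0 (11.9% and 9.34%). Leaving out a single WT library left 49 to 62 genes higher, and 14.9% to 18.2% of all genes. With the length trend removed 45 genes were higher and 0 lower (18.5% and 14.2% of all genes), and the median was 0.38. Quantile normalization also gave 45 and 0 (17.3% and 16.9%), with a median of 0.29. In 26 genes, among them Atp5j2, Ndufb6, Ndufc2, Cox6b1, Sdha and Atp5o, the call held under all 21 settings tried. Signs of other cells differed between the libraries. The summed signal of 6 blood genes was 4987 in V2a and 4.42 to 682 elsewhere. That of 4 mesenchyme genes was 759 in V3, 202 in V2a and 14.4 in V1 against 6.99 to 199 in WT. The WT upper end was mostly Dcn, at 179 in WT replicate 6. The collagens Col1a1, Col1a2 and Col3a1 were at most 10.6 in WT and 4.39 in V1. They were 37.0, 62.9 and 85.5 in V2a and 193, 226 and 312 in V3. The sum of 5 skeletal muscle genes was 140 in V3 against 10.1 to 26.7 in WT. The sum of 7 progenitor genes was 342, 980 and 1654 in V1, V2a and V3 against 234 to 499 in WT. Vim, the eighth gene of that list, went the other way, at 495, 1553 and 2594 against 3601 to 5184. The part of these cells in the result was not tested.

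Among the interneurons V3 tended to be lowest and V2a highest. Each type had 1 library, so these are descriptions with no test. V3 had the lowest value of the 3 in 51 of 77 genes and V2a the highest in 54. The median of V3 minus V2a was -0.19, with 7 of 80 genes positive. Differences were small: 1 gene was past 2-fold higher in V3 than V2a and 3 lower, where 8.73% and 5.1% of all genes were. For V1 minus V2a the counts were 1 higher and 2 lower, against 7.25% and 7.96% of all genes, and for V1 minus V3 1 and 2, against 8.44% and 11.9%. These were scarce isoforms of complex IV and Ndufs5, which was 399 in V2a, 184 in V1 and 94.9 in V3.

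Few respiratory chain messages differed detectably between DKO and WT motoneurons. Of 78 genes tested, 0 were higher in DKO and 2 lower at an adjusted p under 0.05, while 3.22% of 16260 genes were higher and 4.77% lower. At an unadjusted p under 0.05 (limma) 3 were higher and 20 lower, where 12.2% of all genes were higher and 14.2% lower. The median difference was -0.15, against 0.00 for all genes and -0.03 for genes under 1000 bases, and 21 of 78 were positive. WT and DKO values did not overlap in 23 genes, against 30.7% of all genes. With DKO replicate 1 at 7.39 M reads and 2 libraries in the group, small differences were hard to detect.

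The 2 genes that passed were accessory subunits. Atp5j2 was 2657, 3218 and 3392 in WT and 2420 and 1988 in DKO, a difference of -0.51 (SE 0.13, adjusted p = 0.034). Ndufa11, a membrane-arm subunit of complex I, was 375, 427 and 540 in WT and 301 and 293 in DKO, a difference of -0.56 (SE 0.15, adjusted p = 0.0472). Both DKO values lay below every WT value in both genes. Cox6a1 had the widest difference among the abundant genes, with 3660 and 3922 in DKO below 4051, 6230 and 6730 in WT, a difference of -0.60 (SE 0.19) that did not pass (adjusted p = 0.0709). Ndufa4 pointed the other way, with 5282 and 5361 in DKO above all WT values (3332, 4098 and 4390), a difference of 0.40 (SE 0.12, adjusted p = 0.0685). Cox7b2 and Cox7a1 had the widest differences, 1.99 and -2.13, at a few reads per library and adjusted p = 0.156 and 0.143. Cox6b2 was 61.4 and 104.7 in DKO against 40.8, 54.4 and 76.5 in WT, a difference of 0.50 (SE 0.28, adjusted p = 0.275).

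These calls were not stable. Array weights, which let libraries count unequally, gave 2 genes higher and 21 lower, where 9.77% of all genes were higher and 13.2% lower. Quantile normalization gave 2 higher and 3 lower (4.52% and 6.41% of all genes). No gene passed without WT replicate 3, 4 or 6, and Cox7b2 alone passed without WT replicate 5. Leaving out DKO replicate 1 or 2 left 1 library in that group, with a median difference of -0.16 and -0.13. With WT replicate 1 or 2 left out, 6 and 13 genes passed, where 9.33% and 12.47% of all genes did. Without WT replicate 3, 4, 5 or 6 the share of all genes that passed was 5.78%, 5.07%, 6.52% and 5.84%. Against the WT libraries 2, 3 and 4 alone 2 genes were higher and 10 lower (7.97% and 7.27% of all genes), and against 1, 5 and 6 alone 1 was higher and 13 lower (6.0% and 8.1%). Ndufa11 was called in both of these splits and Atp5j2 in the second. The 7 progenitor genes other than Vim summed to 268 and 237 in DKO, within the WT range of 234 to 499, while Vim was 2150 and 1809 against 3601 to 5184.

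None of the 9 genes with a miR-218 site passed between DKO and WT. Among those with the whole seed match, DKO minus WT was -0.34 in Ndufb4, -0.20 in Ndufa10, -0.03 in Uqcrc2, 0.09 in Cox7b and 0.28 in Atp5s. Among those with the shorter match it was -0.35 in Sdha, -0.29 in Uqcrq, -0.02 in Ndufb6 and 0.20 in Ndufs6. The sign was positive in 3 of the 9.

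Cultured progenitors were compared with motoneurons next. Here cell state, culture and source cannot be told apart. Of 81 genes tested, 26 were higher in the 2 mES libraries and 2 lower, but 36.2% of 17134 genes were higher and 30.0% lower, so the members' share of higher calls lay near the background. Cox4i2 and Cox8c, among the 26, averaged below the filter of 1 in WT and entered the test only through the mES libraries. The median difference was 0.31, against 0.12 for all genes and 0.55 for genes under 1000 bases. Values of the groups did not overlap in 25 genes, against 66.1% of all genes. The direction of the median depended on transcript length. After a trend on length was removed from each library, 7 genes were higher and 21 lower (33.9% and 32.4% of all genes) and the median was -0.22, while that of all genes moved to 0.02. Quantile normalization gave 24 higher and 8 lower (35.7% and 32.1%). The 2 progenitor libraries also differed: without pMN 13 genes were higher and 7 lower (33.4% and 28.0% of all genes) with a median of 0.01, and without NP 46 were higher and 1 lower (32.6% and 29.2%) with a median of 0.59. Against WT libraries 2, 3 and 4 alone 15 were higher and 2 lower (32.8% and 26.0% of all genes), and against 1, 5 and 6 alone 23 and 2 (33.1% and 28.9%).

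**Figure D3:**
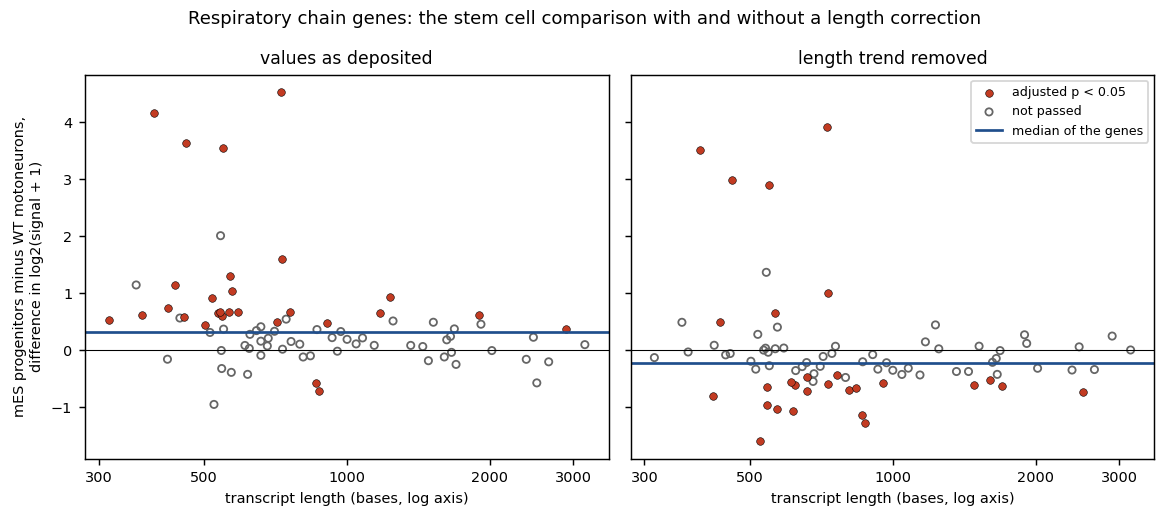
Each point is 1 respiratory chain gene, by transcript length in bases (horizontal log axis) and mES progenitors minus WT motoneurons in log2(signal + 1) (vertical axis), as deposited at left and after removal of the length trend at right; filled points passed. The median line moves from 0.31 to -0.22, while the 4 highest points stay at 2.90 or more.

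A small set held its direction and its call under every setting tried: Atp5g2, Cox6b2, Cox7a1, Ndufs6 and Uqcr10 higher in the progenitors, and Ndufa5 lower. Atp5g2 was 8549 in pMN and 6566 in NP against 2032, 2500 and 2721 in WT, a difference of 1.60 (SE 0.16, 3.04-fold, adjusted p = 7.85e-06). It was 0.998 after the length trend was removed. Ndufs6, an accessory subunit of the matrix arm, was 2124 and 1434 against 660, 712 and 774, a difference of 1.30 (SE 0.15, adjusted p = 2.74e-05). Uqcr10, a small complex III subunit, was 2840 and 1763 against 721, 1111 and 1142, a difference of 1.15 (SE 0.22, adjusted p = 0.00101). Ndufa5 was 903 and 802 in pMN and NP against 1221, 1358 and 1670, a difference of -0.71 (SE 0.14, adjusted p = 0.00134). Ndufa8, the other gene that was lower, had 1188 and 832 against 1289, 1458 and 1756, a difference of -0.58 (SE 0.18, adjusted p = 0.0141). In each of these genes both progenitor values lay outside the WT range.

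Other members that passed as deposited were spread over the complexes. Ndufa2, Ndufa7 and Ndufa6 differed by 1.05, 0.92 and 0.68 in complex I. Sdhd, at 2354 and 1737 against 868, 1041 and 1221, differed by 0.94 (SE 0.16, adjusted p = 0.000493) in complex II. Uqcrb and Uqcrh differed by 0.64 and 0.61 in complex III, Cox7c by 0.68 in complex IV and Atp5c1, the rotating gamma subunit, by 0.66 in complex V. With the length trend removed, Uqcrh was at -0.04. The opposite end was Ndufs5, at 412 and 180 against 237, 642 and 724, a difference of -0.95 (SE 0.44) that did not pass as deposited (adjusted p = 0.0784).

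Isoform use separated the progenitors from every other library. Within the c subunit genes, Atp5g2 made up 22.6% ± 1.55 (SD, n = 6) of the summed signal in WT, 22.2% and 20.6% in DKO, 25.2%, 29.7% and 32.6% in V1, V2a and V3, and 41.0% and 44.9% in pMN and NP. Atp5g1 went the other way, from 25.1% ± 1.39 (SD, n = 6) in WT to 11.9% in pMN and 9.34% in NP. Atp5g3 remained the largest in WT at 52.3% ± 1.89 (SD, n = 6) and took 47.0% and 45.8% in the progenitors. The share of Cox6b2 in its pair was 0.722% to 1.23% in WT, 1.39% and 2.40% in DKO, 0.458% to 1.19% in the interneurons, and 9.93% and 17.9% in pMN and NP. Cox7a1, the heart and muscle isoform, made up 0.236% to 1.26% of its pair with Cox7a2 in WT and 9.08% and 13.4% in the progenitors. These shares come from length-scaled signal, and no test was run on them.

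**Figure D4:**
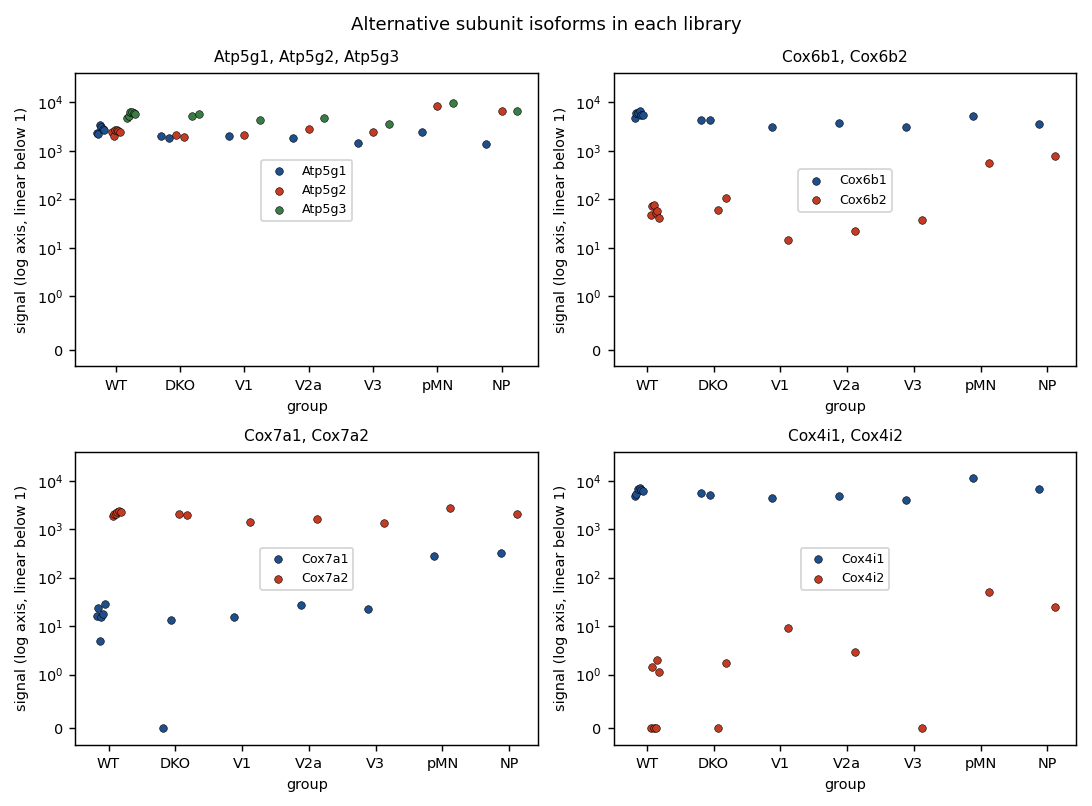
Signal of alternative isoforms (vertical axis, log scale, linear below 1) in each library, grouped on the horizontal axis; each point is 1 library. Cox6b2 rises from at most 105 in the sorted embryonic cells to 575 and 773 in the mES progenitors, and Atp5g2 from at most 2813 to 8549 and 6566.

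As levels, Cox6b2 was 575 and 773 in pMN and NP against 40.8, 54.4 and 76.5 in WT, a difference of 3.54 (SE 0.26, adjusted p = 8.70e-07). Cox7a1 was 273 and 321 against 4.85, 16.8 and 29.0, a difference of 4.15 (SE 0.51, adjusted p = 4.16e-05). Cox4i2, an isoform known for its response to low oxygen, was 51.1 and 24.4 against 0 to 1.95 in WT. There 3 libraries were at 0, and the difference was 4.53 (SE 0.56). Its WT mean of 0.754 lay below the filter of 1. It entered the test only through the progenitors, so its call is not read as support. About 46 and 22 reads stood behind the Cox4i2 values of pMN and NP. Cox8c, a testis isoform, was at 0 in all WT libraries and also entered the test only through the progenitors. About 10 and 4 reads stood behind its 18.6 and 6.76. No fold is given because 3 reads in the shallowest library correspond to 17.2. Cox6a2 and Cox8b, muscle isoforms, reached at most about 4 reads in any library, and Cox7b2 at most about 6. The general isoforms carried these sets in every library: Cox6a1, Cox7b, Cox8a and Cox4i1 each held at least 99.4% of their set. Ndufa4l2, a low-oxygen paralog of Ndufa4, was 84.6 and 185 in pMN and NP and at most 13.5 elsewhere. The sum of 5 skeletal muscle markers was 141 and 142 in pMN and NP, 10.1 to 26.7 in WT and 140 in V3. In pMN and NP it came from Actc1 (91.7 and 21.4) and Acta1 (48.0 and 118.7), with Myod1, Myog and Ckm at most 1.63. The sum in V3 differed in make-up, with Actc1 at 67.0, Myog at 49.0 and Myod1 at 17.4. Whether muscle cells had a part in the isoform differences was not tested.

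The progenitor libraries differed from each other mainly in one direction, described here with no test at 1 library each. pMN was higher than NP in 76 of 82 genes with a median of 0.55, against -0.07 for all genes. It was past 2-fold higher in 10 genes and lower in 0, where 8.32% of all genes were higher and 16.7% lower. These genes were Ndufa12, Ndufc2, Ndufs5, Sdhb and Uqcrq, and the scarce isoforms Cox4i2, Cox6a2, Cox7b2, Cox8b and Cox8c. Apart from Cox4i2, the scarce isoforms rested on about 4 to 10 reads in pMN and 0 to 4 in NP. Sdhb was 2654 in pMN and 1214 in NP, on both sides of the WT range of 1590 to 1802. Uqcrq was 3434 and 1306, and Ndufc2 2442 and 1214. The sum of the 7 progenitor genes other than Vim was 8761 in pMN and 5544 in NP, and Vim was 5496 and 1501.

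The neighbours of the chain in energy metabolism were read from gene lists. In all 3 comparisons the median difference of glycolysis was larger in size than that of the chain. In the interneuron comparison 12 of 17 glycolytic genes were higher in motoneurons, where 17.7% of all genes were, with a median of 0.81. Among them were the aldolase Aldoc at 2.29 (limma, adjusted p = 0.00199) and lactate dehydrogenase Ldha at 2.21 (SE 0.19, adjusted p = 3.3e-05). In DKO 7 of 17 were lower and 0 higher, where 4.77% of all genes were lower and 3.22% higher. The median was -0.58, and the lower genes included Eno1 at -1.36 (limma, adjusted p = 0.00251) and Ldha at -1.17 (adjusted p = 0.00942). Ldha was 2204 to 4130 in WT and 1426 and 1358 in DKO. In the progenitors all 17 passed, 12 higher and 5 lower, where 36.2% of all genes were higher and 30.0% lower. The median was 1.38. The hexokinase Hk2 was 7.34 to 12.2 in WT and 884 and 1118 in pMN and NP.

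**Figure D5:**
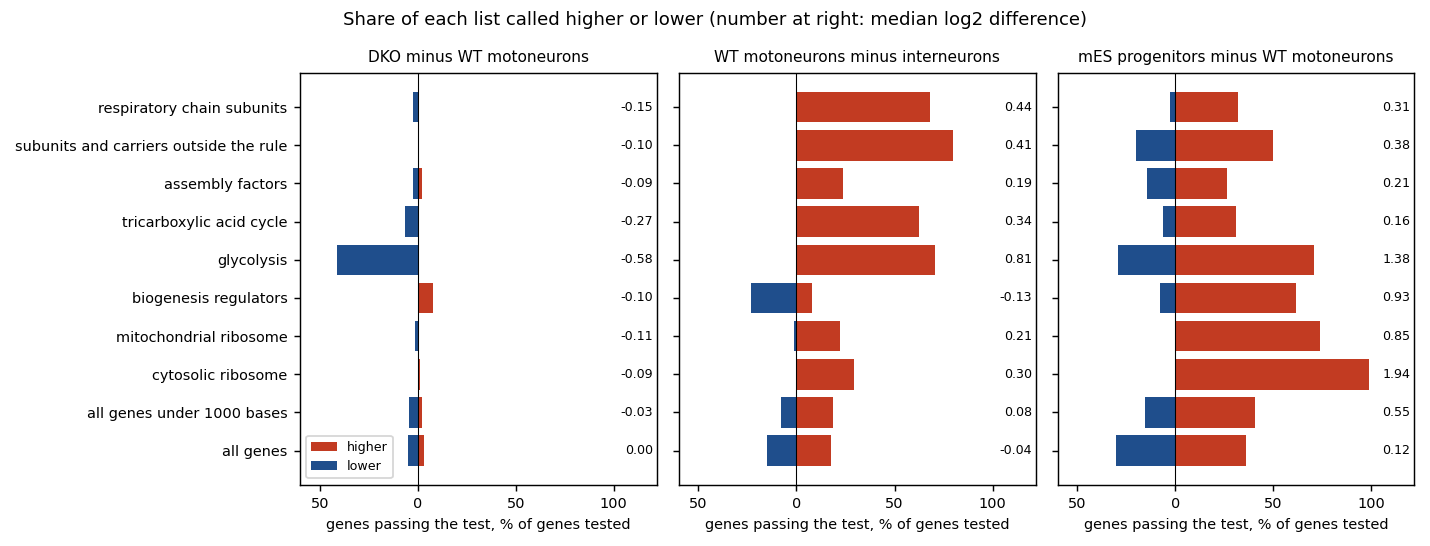
Bars give the percentage of tested genes that were higher (red) or lower (blue) at an adjusted p under 0.05 in each list (vertical axis) and comparison; numbers at right are median log2 differences. In the interneuron comparison 54 of 79 respiratory chain genes were higher, against 17.7% of all genes. In the DKO comparison 7 of 17 glycolytic genes were lower, against 4.77% of all genes.

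Among genes that work with the chain, some lists had shares of higher calls well above the 17.7% of all genes and others lay near it. Of 10 subunits and carriers that the naming rule misses, 8 were higher in motoneurons than in interneurons, among them the carrier cytochrome c (Cycs) at 0.81 and Cyc1 of complex III at 0.31. In the tricarboxylic acid cycle, which feeds the chain, 10 of 16 were higher with a median of 0.34, led by Pdha1 of pyruvate dehydrogenase at 1.17. Nearer to the share of all genes were 42 assembly factors, with 10 higher (23.8%) and a median of 0.19, and 76 mitochondrial ribosomal proteins, with 17 higher (22.4%) and 1 lower. The cytosolic ribosome had 22 of 75 higher (29.3%). The 13 nuclear regulators of mitochondrial biogenesis went in both directions. Nrf1, Gabpa and Yy1 were lower in motoneurons, at -0.68, -0.70 and -0.34, while the coactivator Ppargc1b was higher at 2.28 (SE 0.50, adjusted p = 0.00676). In DKO the coactivator Ppargc1a was the only one of the 13 called, at 41.4 and 48.5 against 17.9 to 26.0 in WT, a difference of 1.02 (SE 0.23, adjusted p = 0.0228). The other DKO counts were 1 higher and 1 lower among assembly factors, and 1 lower in the tricarboxylic acid cycle. There was 1 lower among mitochondrial and 1 higher among cytosolic ribosomal proteins. Of all genes 3.22% were higher in DKO and 4.77% lower. Among the subunits outside the rule, Cyc1 came nearest at -0.37 (adjusted p = 0.0861). In the progenitors 76 of 77 cytosolic ribosomal genes were higher, with a median of 1.94, and 56 of 76 mitochondrial ones, with a median of 0.85. The regulators were higher in 8 of 13 and lower in 1, Ppargc1a at -2.49. In that comparison 36.2% of all genes were higher and 30.0% lower, and 40.7% and 15.3% of genes under 1000 bases.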

How the data were processed

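Messenger RNA was measured in 13 libraries; per the labels' protocols, libraries of oligo-dT-selected RNA were made with the TruSeq RNA kit (v2), which does not mark the strand. The authors deposited a signal per gene and per transcript of RefSeq, per the file headers. DESeq, bedtools, mm9 and mm10 are named, without a role, in the submitters' processing notes. The sources used here do not give the aligner or counter. Each gene value equalled the sum of its transcripts. The total signal ranged from 6.24e+06 to 9.88e+06 and the upper quartile from 228 to 234. Times transcript length, 77.5% to 79.5% of low values were within 0.1 of a whole multiple of a library constant, which gave the approximate depths. Depth limits precision most in DKO replicate 1.

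Differences were tested across the whole table with limma 3.58.1 (limma-trend) in R 4.3.3 on log2(signal + 1). Genes entered where their signal averaged 1 or more in the comparison. The two-sided p-values were adjusted by Benjamini-Hochberg over all genes, with a threshold of 0.05. Fold changes on this scale understate the change of low genes. The form of the test written for normalized values was used. The 6 WT libraries were compared with 2 DKO libraries, with the V1, V2a and V3 libraries as 1 class, and with pMN and NP as 1 class. The fit was checked on simulated data. Lengths and UTRs came from GENCODE M21, through RefSeq accessions, for 22924 entries (97.5%) and all 82 members; promoters and microRNA from RefSeq. Scaffold names in the table are those of GRCm38.

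The members, context lists, markers and alternatives were chosen with earlier results of these data known. Named genes are the 2 highest of each complex, the members that passed (up to 15 by smallest adjusted p in each direction), the 3 widest differences each way, all isoform sets, members with a mean below 1, and the 3 most and least variable; others serve as counts or examples. Values of 1 gene that this rule names are not reported here. Same-numbered WT and DKO libraries did not deviate together (correlations of -0.06 and -0.01), so the numbers were not taken as pairs. Alternatives were other pseudocounts, filters, scalings, array weights, removal of a length trend, a replicate block, and omission of libraries.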

Additional observations from a re-analysis of the deposited data

Results flagged for a closer look

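In 6 of the respiratory chain genes 1 WT motoneuron library lay far from the other 5, by the gap to its nearest neighbour as a part of the group's range; chance alone marks about 1 in 20 groups of this size. WT replicate 2 was low in Ndufa2, at 618 against 873 to 1013, and in Ndufs7, at 504 against 795 to 918. The same library was high in Uqcrb, at 2280 against 1651 to 1746. WT replicate 1 was low in Ndufa4, at 3332 against 4006 to 4390. WT replicate 3 was high in Atp5sl, at 216 against 155 to 170. WT replicate 5 was high in Cox7b2, at 7.83 with the other 5 at 0, which is about 6 reads.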

How the results depend on the processing

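The count of respiratory chain genes called between DKO and WT was 2, where 7.99% of all genes were called. It was 1 without a filter (5.97% of all genes), 5 with quantile normalization (10.9%) and 23 with array weights (22.9%). It was 4 with the length trend removed (8.01%). Against WT libraries 2, 3 and 4 or 1, 5 and 6 alone it was 12 and 14 (15.2% and 14.1%). With a WT library left out it was 0 to 13 (5.07% to 12.47%). With a replicate block by number it was 0; the numbers do not pair the samples, so this is not read as a weaker effect. The median stayed between -0.21 and -0.05. Against interneurons the count was 54, where 32.9% of all genes were called. With a library left out it ranged from 32 without V3, where 15.4% of all genes were higher and 10.6% lower, to 62. It was 45 with quantile normalization (34.2% of all genes) and 45 with the length trend removed (32.7%). The median of 0.44 was 0.29 and 0.38 with these settings. In the mES comparison the count of 28 was 15 with array weights, 17 against WT libraries 2, 3 and 4 alone, and 20 to 47 with a library left out. Its median of 0.31 was 0.13 with quantile normalization, turned to -0.22 with the length trend removed, and ranged from 0.00503 to 0.59 with a library left out. The difference of Atp5s against interneurons was -0.03 and turned to 0.0841 with array weights and 0.0436 against WT libraries 1, 5 and 6 alone, and it ranged from -0.0768 to 0.0505 with a library left out (above 0 without WT replicate 3 or V1). Uqcrh in the mES comparison turned to -0.0351 with the length trend removed. The cause was not tested for these shifts. Where an omission leaves 1 library in a group, that library is assumed to vary like the others. Transcripts summed per symbol equal the gene values by construction. Of 17 named genes called against interneurons 15 were tested and called under every alternative, of 17 in the mES comparison 6, and of 2 in DKO 0.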
